A study of Homo sapiens with 8 samples.

Results

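The genes described here encode enzymes that remove peroxides and superoxide: the 6 peroxiredoxins PRDX1, PRDX2, PRDX3, PRDX4, PRDX5 and PRDX6, the cytosolic electron donor thioredoxin (TXN), the glutathione peroxidases GPX1 and GPX4, and the copper/zinc superoxide dismutase SOD1. They were chosen by name, and every transcript that GENCODE version 44 assigns to them was summed. The 10 genes had 61 annotated transcripts, of which 41 held at least 1 count, in a table of 254070 transcripts and 62639 genes, 16474 of them with a count. In cells with PTBP1 KD 1 of the 10 genes, TXN, was lower, at 0.517-fold of its level in control cells. None of the other 9 genes passed the test in either direction. For comparison, 3.19% of all genes tested were called lower, 2.36% higher and 5.54% in either direction.

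The MOLM-13 line was derived from acute myeloid leukemia. Its cells carried a lentiviral, dox-inducible shRNA, either shPTBP1 (genotype labelled PTBP1 KD) or the scrambled control shSCR (labelled shControl, genotype WT), and both groups were grown for 9 days in dox, with 4 biological replicates per group. In both groups the vector also carried mCherry and a truncated nerve growth factor receptor, and the paper describes 1 shRNA per group, so the loss of PTBP1 and any other difference between the cell populations cannot be told apart. Full-length cDNA was read on a nanopore instrument, which assigns a read to an isoform as well as to a gene, and the comparison asks which transcripts depend on PTBP1, an RNA-binding protein that regulates splicing.

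The libraries held between 1528449 and 1613342 counts and 12322 to 12589 detected genes. Levels are given as normalized CPM, counts per 1000000 after scaling by the TMM factors of edgeR. PTBP1 was at 6.33, 9.91, 8.56 and 14.7 CPM in shPTBP1 replicates 1 to 4 and between 39.9 and 57.3 CPM in the 4 shSCR replicates (log2 fold change -2.26, SE 0.22, adjusted p = 7.18e-05 by edgeR). Of 7597 genes tested by edgeR, 242 were lower and 179 higher at an adjusted p under 0.05. Of 10 myeloid markers, 7 could be tested. CD4 was lower (log2 fold change -0.47, edgeR adjusted p = 0.000597), and the other 6 had log2 fold changes above 0 without passing the test, the one with the smallest p being LYZ (0.33, edgeR adjusted p = 0.103). The 10 summed to 833 to 965 CPM in shPTBP1 and 850 to 914 CPM in shSCR libraries. FLT3, not tested, was lower in shPTBP1, with 18 counts (1.92 to 3.95 CPM) against 35 in shSCR libraries (4.00 to 7.37 CPM). CSF2RA was at 0 and SPI1, a myeloid transcription factor, held 1 count over all libraries. Reads under the authors' mapping quality limit were not counted, so these 2 values do not show that the genes were silent. Any rows marked as the chromosome Y copy of a gene that X and Y share, as CSF2RA is, were also left out here. Whether that step, the filter or the assignment of reads to transcripts lowered the values was not tested. The 12 erythroid markers summed to 0.667 CPM or less in every library, the 10 lymphoid markers to 2.64 to 6.67 CPM, and the 9 fibroblast and epithelial markers to 18.3 to 26.3 CPM, with COL1A2 (adjusted p = 0.830) and COL3A1 (adjusted p = 0.872) the 2 that edgeR could test.

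Peroxiredoxins reduce hydrogen peroxide and organic peroxides with a reactive, peroxidatic cysteine. In the typical 2-cysteine enzymes this residue then forms a disulfide with a resolving cysteine of a partner subunit. In the cytosol thioredoxin, itself kept reduced by thioredoxin reductase and NADPH, opens the disulfide again. Glutathione peroxidases do similar work with a selenocysteine and electrons from glutathione, and superoxide dismutases make the hydrogen peroxide that both families remove. In myeloid cells peroxides come from mitochondrial metabolism and from NADPH oxidases.

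The bases around the catalytic codon are given for each peroxiredoxin, to show what the family shares. They come from the coding sequence of its main isoform in GENCODE on GRCh38, written 5′ to 3′ with the codon of the peroxidatic cysteine in capitals:
PRDX1: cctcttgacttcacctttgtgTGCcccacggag
PRDX2: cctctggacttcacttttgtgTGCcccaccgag
PRDX3: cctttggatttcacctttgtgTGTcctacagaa
PRDX4: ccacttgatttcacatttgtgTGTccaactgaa
PRDX5: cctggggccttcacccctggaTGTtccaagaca
PRDX6: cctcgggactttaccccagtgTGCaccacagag
Counted from the start codon, the capitals are codon 52 of PRDX1, 51 of PRDX2, 108 of PRDX3, 124 of PRDX4, 100 of PRDX5 and 47 of PRDX6. Over the whole coding sequence, PRDX1 and PRDX2 were identical at 72.6% of alignment columns, with gaps counted as columns. PRDX3 and PRDX4 were identical at 60.8%, and the other pairs lay between 45.9% and 51.7%. Gaps lower the value of pairs with unequal coding lengths, so the values do not rank the pairs by likeness of their aligned bases.

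The corresponding stretches of the other redox enzymes carry the active-site cysteines of thioredoxin (codons 32 to 35 in capitals) and the in-frame TGA codon that is read as selenocysteine in both glutathione peroxidases (codon 49 of GPX1 and codon 73 of GPX4 in capitals):
TXN: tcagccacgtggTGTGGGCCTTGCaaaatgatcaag
GPX1: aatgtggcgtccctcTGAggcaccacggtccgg
GPX4: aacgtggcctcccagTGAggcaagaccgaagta

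TXN (ENSG00000136810; chr9:110243810-110256507, minus strand, GRCh38) encodes the small dithiol protein that reduces peroxiredoxins, ribonucleotide reductase and several transcription factors. Its level was 184, 183, 220 and 197 CPM in the 4 shPTBP1 libraries and 404, 308, 391 and 413 CPM in the 4 shSCR libraries. The groups did not overlap, and the highest PTBP1 KD library lay below the lowest control. The means were 196 ± 17.1 CPM (SD, n = 4) and 379 ± 48.4 CPM (SD, n = 4).

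By edgeR the log2 fold change of TXN was -0.95 (SE 0.10, 95% interval -1.16 to -0.74, adjusted p = 9.36e-05), and by p value it stood at rank 13 of the 7597 genes. The exact permutation test over the 8 libraries gave p = 0.0286, the smallest that 4 against 4 allows. TXN was the 1 of the 10 genes called lower and 0 were called higher, where 3.19% of all genes tested were lower, 2.36% higher and 5.54% either. DESeq2 also called TXN alone among the 10, and 3.23% of its tested genes were lower. It was also the only one of the 10 whose groups did not overlap, a pattern found in 12.7% of genes tested. With CPM by library total in place of TMM scaling, PRDX5 did not overlap either. These values rest on 1209 TXN counts in shPTBP1 and 2371 in shSCR libraries. In bulk RNA, fewer cells of a type and less RNA per cell cannot be told apart.

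**Figure D1:**
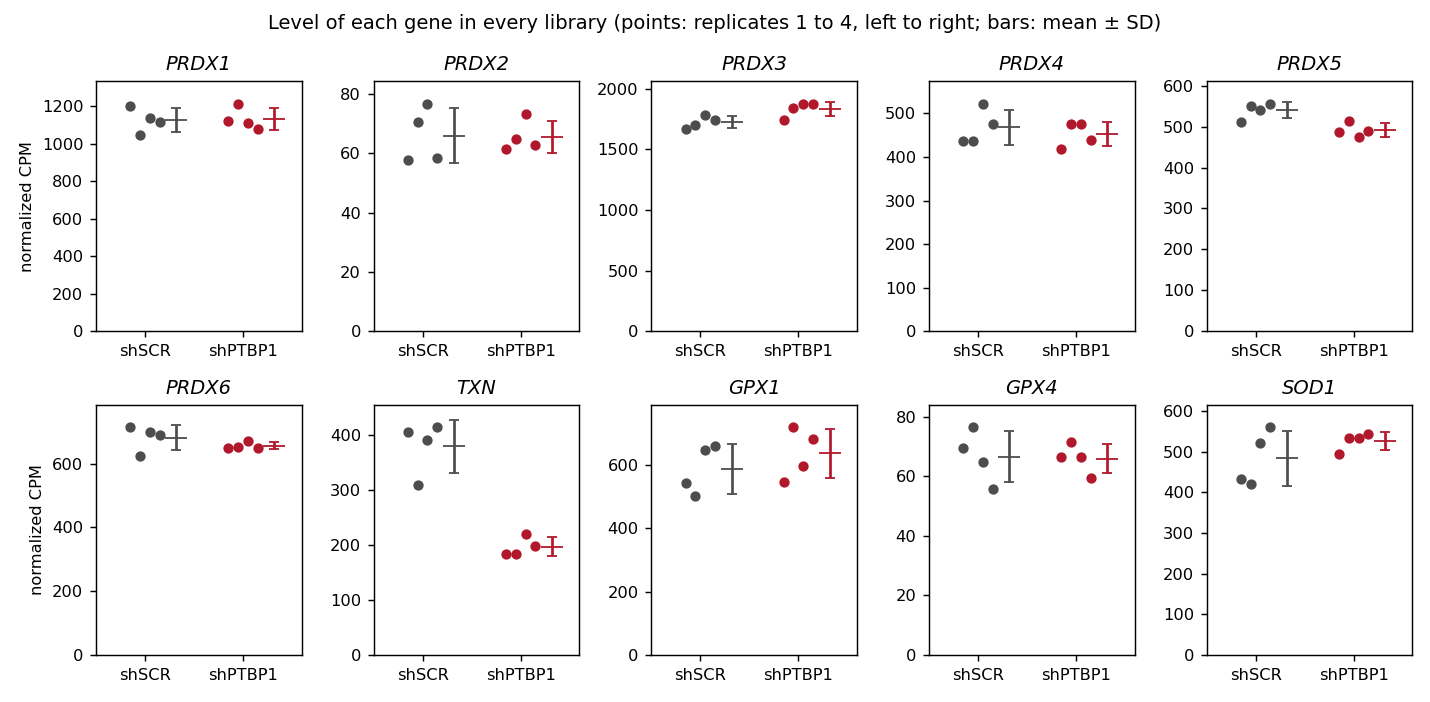
Normalized CPM (vertical axes, starting at 0) of each of the 10 genes in the 4 shSCR and 4 shPTBP1 libraries, with points for libraries and bars for the mean ± SD. TXN is between 183 and 220 CPM in shPTBP1 and between 308 and 413 CPM in shSCR libraries, and the groups of the other 9 genes overlap.

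GENCODE lists 3 isoforms of TXN, and all 3 held counts. Bases 82 to 237 of the coding sequence of TXN-202, the main isoform, are shown to mark where the isoforms differ, with the 60-base exon that TXN-201 lacks in capitals (chr9:110250820-110250879, bases 130 to 189 of 315 before the stop codon):
TXN-202: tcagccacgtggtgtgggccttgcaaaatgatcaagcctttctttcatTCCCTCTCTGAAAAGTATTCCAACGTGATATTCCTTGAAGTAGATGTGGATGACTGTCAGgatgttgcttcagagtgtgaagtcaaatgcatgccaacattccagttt
The exon lies after the active-site codons and its length keeps the reading frame. TXN-203 has 2 exons and no annotated coding sequence, and it starts 11391 bases downstream of TXN-202, so it holds only the 3′ part of the gene. Its first exon runs further upstream than the matching exon of TXN-202, and it ends before TXN-202 does. Whether reads of TXN-202 cut short at the 5′ end were assigned to it was not tested.

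Both main TXN isoforms fell. TXN-202 held 239, 214, 268 and 254 counts in shPTBP1 and 539, 407, 501 and 521 in shSCR libraries, and its log2 fold change was -1.0 (SE 0.10, adjusted p = 5.92e-05 by edgeR over transcripts). TXN-203 held 48, 58, 65 and 52 counts in shPTBP1 and 111, 73, 79 and 115 in shSCR libraries, and changed by -0.75 on the log2 scale (SE 0.16, adjusted p = 0.0166). For both of them the lowest control count was above the highest PTBP1 KD count. TXN-201, the isoform without the 60-base exon, held 4, 5, 1 and 1 counts against 8, 3, 7 and 7, too few to test. It is named although its share is under 5%, a choice made after its values were seen.

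The balance between the isoforms was not called different. TXN-202 made up 80.6 ± 2.46% of TXN counts (SD, n = 4) in shPTBP1 and 83.1 ± 2.01% in shSCR, a difference of -2.55 percentage points (exact permutation p = 0.20), which was -1.44 without shPTBP1 replicate 2. TXN-203 made up 18.5 ± 2.11% and 15.8 ± 1.95% (exact permutation p = 0.143), and TXN-201 made up 0.951 ± 0.758% and 1.03 ± 0.278%.

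**Figure D2:**
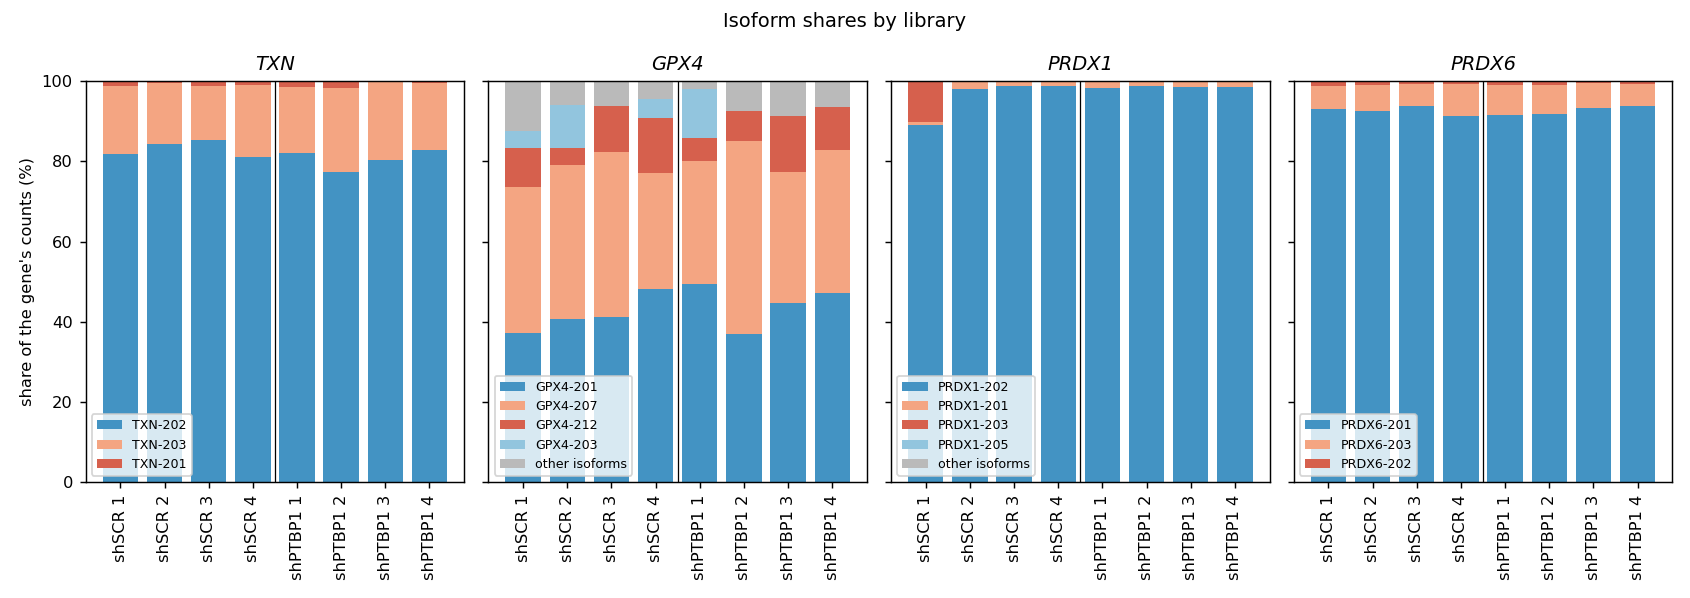
Share of the gene's counts held by each isoform (vertical axis, %) in every library, for TXN, GPX4, PRDX1 and PRDX6. TXN-202 lies between 77.3% and 85.3% in all 8 libraries, and PRDX1-203 appears in shSCR replicate 1 alone, at 10.1%.

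The 4 typical 2-cysteine peroxiredoxins did not pass the test. PRDX1, the abundant cytosolic enzyme, was at 1122, 1213, 1110 and 1081 CPM in shPTBP1 and 1202, 1049, 1136 and 1116 CPM in shSCR libraries (log2 fold change 0.01, 95% interval -0.12 to 0.14, adjusted p = 0.968 by edgeR). PRDX2, its cytosolic paralogue best known from red blood cells, was at 61.4, 64.7, 73.1 and 62.7 CPM against 57.8, 70.7, 76.7 and 58.4 CPM (log2 fold change -0.01, interval -0.26 to 0.24, edgeR adjusted p = 0.983). The groups of both genes overlapped widely, and PRDX2, with the wider interval, rests on 815 counts in all against 14030 for PRDX1.

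PRDX3, which works in mitochondria, was the most abundant of the 10 genes in CPM, at 1746, 1841, 1874 and 1877 in shPTBP1 and 1669, 1701, 1788 and 1745 in shSCR libraries. Its log2 fold change was 0.09 (95% interval -0.02 to 0.20, edgeR adjusted p = 0.370), and the lowest PTBP1 KD library lay within the control range. PRDX4, the enzyme of the endoplasmic reticulum, was at 419, 475, 475 and 439 CPM against 437, 437, 522 and 476 CPM (log2 fold change -0.05, interval -0.21 to 0.11, edgeR adjusted p = 0.779). Only the lowest PTBP1 KD value was outside the range of the controls.

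PRDX5, an atypical peroxiredoxin found in mitochondria, peroxisomes and cytosol that thioredoxin also reduces, came closest to the threshold after TXN. It was at 487, 515, 476 and 490 CPM in shPTBP1 and 512, 551, 540 and 556 CPM in shSCR libraries, and the groups overlapped by 1 library on each side. The log2 fold change was -0.13 (95% interval -0.26 to -0.01, unadjusted p = 0.0351 and adjusted p = 0.221 by edgeR), and the exact permutation p was 0.0571. On the deposited CPM, scaled by library total, PRDX5 was at 488, 492, 461 and 476 against 517, 564, 530 and 549, the groups did not overlap and the exact permutation p was 0.0286. The gene still did not pass edgeR on that scale (adjusted p = 0.0879). Of the 10 genes, 2 had an unadjusted p under 0.05 by edgeR, TXN and PRDX5, as had 1459 of the 7597 genes tested.

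PRDX6, a 1-cysteine enzyme that uses glutathione rather than thioredoxin, was at 650, 651, 672 and 649 CPM in shPTBP1 and 713, 623, 699 and 688 CPM in shSCR libraries. Its log2 fold change was -0.06 (95% interval -0.18 to 0.07, edgeR adjusted p = 0.669), and the PTBP1 KD values lay inside the control range. Summed, the 6 peroxiredoxins reached 4631 ± 117 CPM (SD, n = 4) in shPTBP1 and 4606 ± 136 CPM in shSCR.

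GPX1, the cytosolic glutathione peroxidase, was at 547, 719, 598 and 684 CPM in shPTBP1 and 542, 502, 647 and 661 CPM in shSCR libraries. Its log2 fold change was 0.12 (95% interval -0.10 to 0.34, edgeR adjusted p = 0.590), and it varied between replicates by a coefficient of variation of 12.3% and 13.3%. GPX4, which reduces lipid peroxides within membranes and is the enzyme whose loss permits ferroptosis, was at 66.4, 71.4, 66.5 and 59.5 CPM against 69.4, 76.4, 64.7 and 55.8 CPM (log2 fold change -0.01, interval -0.26 to 0.23, edgeR adjusted p = 0.966). In both genes the groups overlapped.

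SOD1, which turns superoxide into hydrogen peroxide and oxygen in the cytosol, was at 494, 535, 533 and 544 CPM in shPTBP1 and 433, 422, 522 and 560 CPM in shSCR libraries. Its log2 fold change was 0.12 (95% interval -0.07 to 0.31, edgeR adjusted p = 0.497). The PTBP1 KD values all lay inside the control range.

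The intervals of the 9 genes other than TXN therefore lay between -0.26 and 0.34 on the log2 scale and none of them met that of TXN. A p above the threshold does not show that the levels were equal. Over the 10 genes the median log2 fold change was -0.01, and over all genes tested it was about 0.

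**Figure D3:**
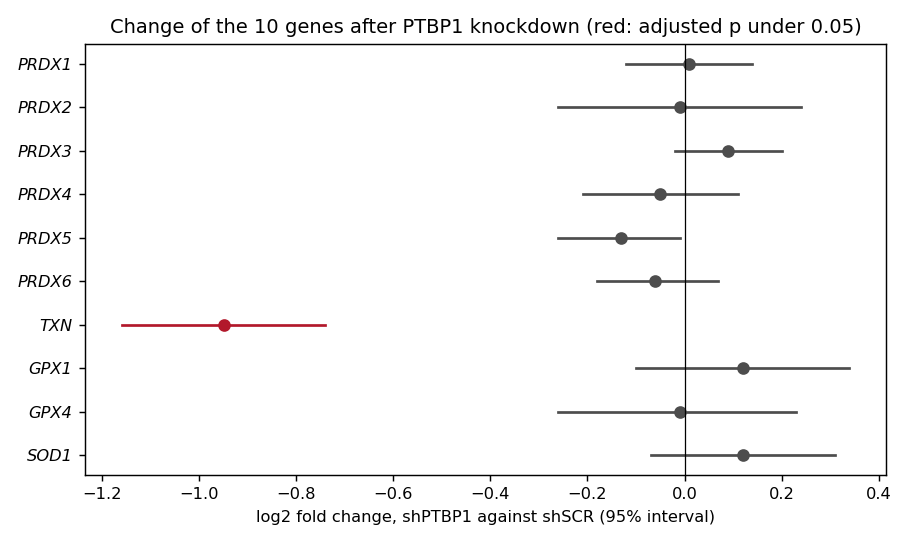
Log2 fold change of shPTBP1 against shSCR (horizontal axis) with its 95% interval from edgeR for each of the 10 genes, in red where the adjusted p is under 0.05. The interval of TXN runs from -1.16 to -0.74, and those of the other 9 genes lie between -0.26 and 0.34.

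Because the other members moved little, the make-up of the group shifted through TXN. TXN made up 3.19%, 2.92%, 3.61% and 3.23% of the summed level of the 10 genes in shPTBP1 and 6.70%, 5.36%, 6.13% and 6.52% in shSCR libraries. The sum of all 10 was 6057 ± 204 CPM (SD, n = 4) and 6124 ± 297 CPM, and without TXN it was 5861 ± 203 CPM and 5745 ± 259 CPM. These sums differed by less than the spread between replicates. The shares of TXN did not overlap, which follows from its levels given above and is not a further result.

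To compare levels between genes, CPM was divided by the mean transcript length in kilobases, weighted by the counts of each isoform. Where a read covers a whole molecule, counts do not grow with length and this division lowers long transcripts. Whether counts grew with length was not tested. By undivided CPM the shSCR order was PRDX3 (1726), PRDX1 (1126), PRDX6 (681), GPX1 (588), PRDX5 (540), SOD1 (484), PRDX4 (468), TXN (379), GPX4 (66.6) and PRDX2 (65.9). In shSCR libraries PRDX1 (1192 ± 66.5 CPM per kb, SD, n = 4) and PRDX3 (1111 ± 33.3) came first, followed by GPX1 (647 ± 86.1), PRDX5 (629 ± 22.7), SOD1 (541 ± 75.6), TXN (539 ± 68.9), PRDX4 (490 ± 42.4), PRDX6 (418 ± 24.3), GPX4 (80.4 ± 10.4) and PRDX2 (71.2 ± 10.1). Neighbours in this order lay within their added SDs, except between PRDX3 and GPX1, between PRDX4 and PRDX6, and between PRDX6 and GPX4. In shPTBP1 libraries TXN was at 279 ± 24.4 CPM per kb, below PRDX4 (473 ± 28.7) and PRDX6 (402 ± 6.91) and above GPX4 (79.6 ± 5.86).

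Isoforms of the other 9 genes were counted in the same way. Of 11 isoforms of the 10 genes that could be tested, 0 were called by diffSpliceDGE of edgeR, 0 had an unadjusted p under 0.05 in that test and 0 were called by limma's diffSplice, while 1.12% of the 5464 isoforms tested in all were called by diffSpliceDGE. PRDX3 used 1 isoform, PRDX3-201, for all of its counts. PRDX2-201, PRDX4-202, PRDX5-201 and SOD1-201 each held at least 98.9% of their gene's counts in every library. GPX1-202 held 94.8 ± 1.08% in shPTBP1 and 94.7 ± 0.979% in shSCR (SD, n = 4). PRDX6-201 held 92.7 ± 1.09% and 92.7 ± 0.992%, and PRDX6-203, which starts 3864 bases downstream and has no annotated coding sequence, 6.58 ± 0.931% and 6.37 ± 1.05%.

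GPX4 was the member with the most divided isoform use. GPX4-201 made up 49.5%, 37.0%, 44.6% and 47.3% of its counts in shPTBP1 and 37.2%, 40.8%, 41.2% and 48.3% in shSCR libraries (exact permutation p = 0.486). GPX4-207, which lacks a 25-base exon and has 540 annotated coding bases in place of 591, made up 36.7 ± 7.91% (SD, n = 4) and 36.1 ± 5.34% (exact permutation p = 0.914). GPX4-212 made up 9.43 ± 3.62% and 9.76 ± 4.08%. The groups overlapped for all 3 isoforms, and with 407 and 417 GPX4 counts per group these shares are imprecise.

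PRDX1-202 made up 98.5 ± 0.217% of PRDX1 counts (SD, n = 4) in shPTBP1 and 96.1 ± 4.77% in shSCR. The larger control SD came from shSCR replicate 1, where it was 89.0%, while it was 98.1%, 98.8% and 98.7% in the other shSCR libraries. In that library PRDX1-203 held 197 counts, or 10.1% of the gene. This isoform lacks a 154-base exon, has other exons shortened and has 291 annotated coding bases in place of 597. It held 0 counts in the other 7 libraries, which allows up to 3 counts in each, for counting error only. Among all transcripts, 4 had at least 100 counts in 1 library and 0 in the other 7, 2 of them in shSCR replicate 1. Without the counts of PRDX1-203, PRDX1 in that library was at 1081 CPM in place of 1202 CPM.

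The partners of the 10 genes were read from 7 lists of related genes. Over all genes tested, 3.19% were lower, 2.36% higher and 5.54% either. With lists this short, 0 or 1 called gene therefore says little about a list. None of the 16 tested genes of the thioredoxin and glutaredoxin system (of 23 listed) passed the test, and their median log2 fold change was -0.08. TXNRD1, the cytosolic reductase that recharges thioredoxin, was at 132 ± 5.84 CPM in shPTBP1 and 129 ± 6.26 CPM in shSCR (SD, n = 4; log2 fold change 0.03, 95% interval -0.13 to 0.19). TXNIP, which binds and inhibits thioredoxin, was at 1103 ± 63.4 CPM and 1070 ± 45.1 CPM (0.04, interval -0.08 to 0.17), and TXN2, the mitochondrial thioredoxin, at 131 ± 15.5 CPM and 140 ± 19.7 CPM (-0.09, interval -0.33 to 0.14). These partners were named for their role after their values were seen. SRXN1, the sulfiredoxin that repairs overoxidized peroxiredoxins, held 11 counts in shPTBP1 and 9 in shSCR libraries and was not tested.

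The smallest p values of that list belonged to TXNL4A, a thioredoxin-like splicing factor subunit, and to MSRB1, a methionine sulfoxide reductase. TXNL4A ranged from 3.80 to 11.9 CPM in shPTBP1 and from 3.33 to 44.9 CPM in shSCR libraries (log2 fold change -1.90, SE 0.61, edgeR adjusted p = 0.0975), and MSRB1 was at 105 ± 10.7 CPM and 119 ± 15.9 CPM (SD, n = 4; edgeR adjusted p = 0.411). Both genes overlapped between the groups.

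Of 23 tested genes of glutathione synthesis and use (28 listed), 1 was lower and 0 were higher, against 3.19% and 2.36% of all genes tested. The median log2 fold change of the list was 0.03. The lower gene was GLO1, the glyoxalase that detoxifies methylglyoxal with glutathione, at 1872 ± 62.9 CPM in shPTBP1 and 2233 ± 33.9 CPM in shSCR (SD, n = 4; log2 fold change -0.25, SE 0.05, edgeR adjusted p = 0.00928). CHAC2, which breaks down glutathione, was at 69.7 ± 5.17 CPM and 54.9 ± 7.19 CPM (edgeR adjusted p = 0.106). The groups did not overlap for either gene, as for 4 of the 23 tested genes of this list and 12.7% of all genes tested.

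Among superoxide dismutases, catalase and copper delivery, 0 of 5 tested genes (6 listed) passed, with a median log2 fold change of 0.04. CAT, the peroxisomal catalase, came nearest, with 1380 ± 42.5 CPM in shPTBP1 and 1211 ± 64.7 CPM in shSCR (SD, n = 4; log2 fold change 0.19, SE 0.06, edgeR adjusted p = 0.0679). Its groups did not overlap, as in 12.7% of all genes tested. SOD2, the mitochondrial dismutase, was at 10.5 ± 2.97 CPM and 8.31 ± 0.466 CPM (edgeR adjusted p = 0.551). The KEAP1-NRF2 list, the pathway that induces many antioxidant genes under oxidative stress, had 0 of 10 tested genes called (15 listed), with a median of -0.09. Its smallest p values were those of BLVRB, a biliverdin reductase, at 163 ± 4.74 CPM and 150 ± 11.7 CPM (edgeR adjusted p = 0.430), and MAFG, a small MAF partner of NRF2, at 46.6 ± 28.0 CPM and 65.5 ± 27.0 CPM (edgeR adjusted p = 0.480).

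The remaining lists likewise had 0 genes called. They were selenoprotein synthesis and other selenoproteins (16 tested of 19, median log2 fold change -0.03), NADPH supply (10 of 13, median -0.02) and NADPH oxidase and myeloperoxidase (6 of 8, median -0.03). SELENOI, an ethanolamine phosphotransferase, had a log2 fold change of 0.45 (edgeR adjusted p = 0.0691) and SECISBP2, which binds selenoprotein mRNAs, of 0.67 (adjusted p = 0.220). NADK2, the mitochondrial NAD kinase, had a log2 fold change of -0.40 (adjusted p = 0.0871) and ME2, a malic enzyme, of -0.37 (adjusted p = 0.239). NCF4 and CYBA, subunits of the phagocyte oxidase, had log2 fold changes of -0.15 (adjusted p = 0.299) and -0.17 (adjusted p = 0.341).

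**Figure D4:**
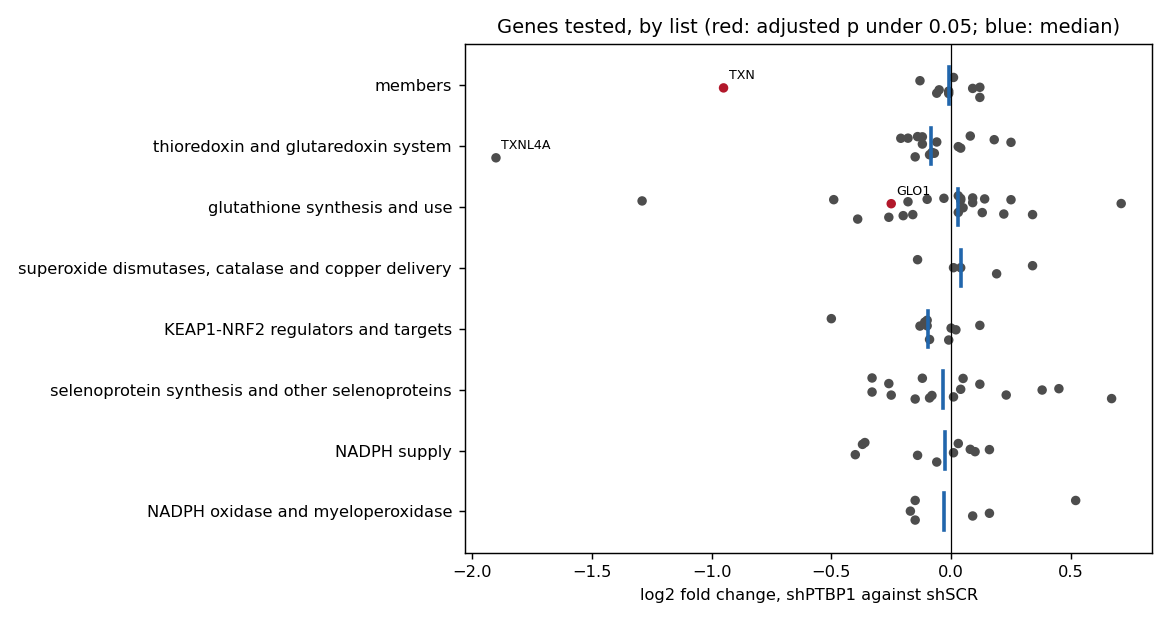
Log2 fold change of shPTBP1 against shSCR (horizontal axis) of every tested gene of the 10-gene group (labelled members) and of the 7 related lists, with red points at an adjusted p under 0.05 and a blue line at each list's median. TXN and GLO1 are the red points, and the medians lie between -0.09 and 0.04.

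The genes whose pattern over the 8 libraries was most like that of TXN were ranked by the root mean square difference of their log2 CPM, each gene centred on its own mean. The nearest was P4HA2, a collagen prolyl hydroxylase subunit, with a difference of 0.159. It was at 12.3 ± 1.15 CPM in shPTBP1 and 22.4 ± 2.10 CPM in shSCR (SD, n = 4). ID3, an inhibitor of basic helix-loop-helix factors, followed with a difference of 0.185 and levels of 68.1 ± 8.83 CPM and 116 ± 4.35 CPM. TMEM231, a protein of the ciliary transition zone, had a difference of 0.190 and levels of 8.59 to 11.5 CPM and 14.0 to 19.3 CPM. By edgeR, P4HA2 (adjusted p = 0.0145) and ID3 (adjusted p = 0.000597) were called lower, and TMEM231 was not called (adjusted p = 0.0691). The 3 genes were picked for their likeness to TXN in these libraries, so these p values are not a further result.

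Copies of these genes took few counts. GENCODE names 23 pseudogenes of the 10 genes, 7 of them of TXN, and 2 held counts. TXNP6, identical to the main TXN transcript at 93.3% of 314 aligned bases, held 2 counts. GPX1P1, 97.2% identical to the main GPX1 transcript over 612 bases, held 1. How reads that match a gene and a copy equally well were divided was not tested. Genes that overlap a member also held few counts, the most being MMACHC opposite PRDX1 with 34 counts in shPTBP1 and 12 in shSCR libraries, and the antisense gene PRDX6-AS1 held 3 and 4. Whether the counting used strand is not given in the sources used here.

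The promoter sequences of RefSeq (GRCh38.p14) had an entry for 7 of the 10 genes. The letters TGACNNNGC, where N is any base, are the core of the antioxidant response element bound by NRF2. Searched on both strands of the 250 bases before each start site, they occurred in 0 of the 7 genes and in 10.9% of 35116 promoters of the same length. This says only that these letters are not in these windows.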

How the data were processed

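RNA of 4 shPTBP1 and 4 shSCR samples of MOLM-13 cells was sequenced as nanopore cDNA. The authors mapped the reads to hg38 with minimap2, kept those with a mapping quality above 50 and counted annotated transcripts with StringTie. Versions and the annotation are not given in the sources used here. The deposited counts are raw whole numbers per transcript. The deposited table named TPM holds CPM, each count divided by its library total without division by length, checked to a tolerance of 1e-06.

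Conditions and replicate numbers came from the labels. Transcripts were joined to genes of GENCODE version 44 on GRCh38 by identifier without version, which found 252562 of 254070. The 1508 others held 0.0876% to 0.115% of counts and were left out. They include any rows marked as the chromosome Y copy of a gene that X and Y share. Gene sums were filtered with filterByExpr (minimum count 10), scaled by TMM and compared between groups by edgeR 4.0.16 (glmQLFit and glmQLFTest, the quasi-likelihood method, with no other term), with Benjamini-Hochberg adjustment over all genes tested and a threshold of 0.05. Isoform shares were tested with diffSpliceDGE, and an isoform was called where its mean share moved by 10 percentage points or more with an adjusted p under 0.05. The 95% intervals and SEs came from the quasi-likelihood fit, and single values were compared by two-sided exact permutation tests over the 70 groupings of 8 libraries. Scripts were tested on simulated data. The biological coefficient of variation was 10.3%. Replicates differed by more than counting noise (2.12 to 3.94 times in squared differences), and no library was a copy of another. The labels call the replicates biological and do not say how they were separated, so p-values measure the spread between these samples. They give no batches or dates.

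The 10 genes and the related lists were chosen with earlier results of these data known, and the lists were written from general knowledge. The text names all 10 genes, PTBP1, their isoforms with a mean share of at least 5% in either group, in each list the called genes (with fewer than 2 called, the 2 smallest p values), pseudogenes and antisense genes with counts, and the 3 genes most like the member with the smallest p. For that likeness, log2 CPM used a prior count of 2. Others are named as chosen after their values were seen.

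Alternatives were DESeq2 1.42.0, limma-voom (limma 3.58.1), DESeq2 size factors, library totals, a mean of at least 50 counts, no filter, limma-trend on log2 of the CPM table plus 1 or 0.5, protein-coding transcripts only, a replicate block and leaving out each library. For isoforms they were limma's diffSplice, a change of 5 percentage points, a mean of at least 10 counts, the block and leaving out each library. Sequences were read from GENCODE transcripts and aligned with Biopython 1.88 and blastn 2.17.0. R 4.3.3 and Python 3.11.15 were used.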

Additional observations from a re-analysis of the deposited data

Results flagged for a closer look

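In each group of 4 libraries the highest and lowest values of the genes and isoform shares were compared with their neighbours by Dixon's criterion, and 5 of 50 groups held a library far from the other 3. Chance flags about 1 in 20 groups of independent, continuous values, and the 5 cannot be read against that rate: the shares of 1 gene depend on each other, and any difference is flagged where the other 3 values are identical, as for PRDX1-203 and PRDX2-201. PRDX6 was at 672 CPM in shPTBP1 replicate 3, against 649 to 651 CPM in the other shPTBP1 libraries. The share of PRDX1-202 in shSCR replicate 1 was 89.0%, the counterpart of PRDX1-203, which made up 10.1% of PRDX1 in that library, against 0 in the others. PRDX5-201 made up 99.5% of PRDX5 in shSCR replicate 3, against 99.9% in the other shSCR libraries, and PRDX2-201 made up 98.9% of PRDX2 in shSCR replicate 4, against 100%, through 1 count of another isoform. TXN was not among these.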

How the results depend on the processing

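TXN was called lower, and was the only one of the 10 genes called, under all 18 alternatives of the gene test. Its log2 fold change lay between -0.99 and -0.94 in the fits on all libraries and between -1.04 and -0.91 when a library was left out, and its adjusted p between 7.21e-15 and 0.00105. The lowest adjusted p of any of the other 9 genes was 0.0755, by an alternative. Isoforms of the 10 genes called remained 0 under every alternative of the isoform test. The difference in the share of TXN-202 ranged from -3.26 to -1.44 percentage points when a library was left out, and that of TXN-203 from 1.80 to 3.31. Scaled by library total, PRDX5 did not overlap between groups (exact permutation p = 0.0286 in place of 0.0571).

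Near 0, signs turned. PRDX1 was at -0.03 with library totals and with limma-trend on CPM plus 1 or plus 0.5, and at -0.01 with a mean of at least 50 counts. PRDX2 was at 0.00 with limma-voom. When single libraries were left out, PRDX1 ranged from -0.03 to 0.04, PRDX2 from -0.07 to 0.07, PRDX4 from -0.08 to 0.01 and GPX4 from -0.09 to 0.06, none of them called.

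Over all genes, DESeq2 called 154 lower in place of 242, and leaving out a library gave 107 to 190 lower (lowest without shPTBP1 replicate 3) and 77 to 168 higher in place of 179. Both counts moved by over 1.5 times without shPTBP1 replicate 2, 3 or 4 or shSCR replicate 4, and the lower count also without shSCR replicate 2. Isoforms called over all genes were 154 by limma's diffSplice in place of 61, and 39 to 55 when a library was left out, the lowest without shPTBP1 replicate 4. Fits without a library hold fewer samples, and the cause of the other shifts was not tested.

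With the replicate number as a block, TXN was at -0.95 (edgeR adjusted p = 0.000412), and 186 genes were lower and 137 higher. The numbers were not treated as pairing, since same-numbered libraries deviated together with correlations across genes of -0.0328 to 0.00889. Depth limits PRDX2 and GPX4 most, with 815 and 824 counts in all.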
